A study of Mus musculus with 20 samples.

Results

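Chemokine genes were followed in CD8+ T cells sorted from treated tumours. The 7 genes were Ccl3, Ccl4, Ccl5, Ccl9, Ccl1, Xcl1 and Cxcl10, taken by gene symbol from the 45777 symbols of the expression table, and all 7 passed the filter on low values. The host mice were of the C57BL/6 strain with the hPD-1, hPD-L1 and h4-1BB alleles, human forms of the proteins that the antibodies bind, and bore tumours of MC38, a colon carcinoma line of the mouse, overexpressing human PD-L1. All 4 groups, control included, shared these alleles and this tumour. Mice were randomised at a mean tumour volume of 150 to 200 mm3, and the T cells were sorted on day 4 after treatment. The 4 groups of 5 libraries were control, pembrolizumab (an antibody that blocks PD-1), ABL503 (a bispecific antibody against PD-L1 and the costimulatory receptor 4-1BB) and the combination of both antibodies. The labels do not state what the control mice received, the age of the mice or which mouse gave which library. The spread behind each p-value is therefore the one between these libraries, and it may be technical.

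Chemokines are small secreted proteins that direct the movement of leukocytes through G-protein-coupled receptors. Activated CD8+ T cells store or rapidly transcribe several of them: Ccl3, Ccl4 and Ccl5 draw in monocytes, dendritic cells and other T cells, Xcl1 attracts the cross-presenting dendritic cells that carry XCR1, Ccl1 binds CCR8, and Cxcl10 draws CXCR3-bearing T cells and NK cells. Cxcl10 is a classical interferon-induced gene, while T-cell receptor signalling through NFAT and NF-kB is a known inducer of Ccl3, Ccl4 and Xcl1.

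Values are deposited per gene and library and were judged to be FPKM, fragments scaled by gene length and library size, so that levels can be compared between genes. Differences are given as log2(FPKM + 1), which understates the change of a gene with low values such as Ccl9. A gene was called where limma gave a Benjamini-Hochberg adjusted p under 0.05 over the 11794 genes tested. Sequencing depth is unknown. In such bulk libraries, fewer cells of a kind and less RNA per cell cannot be told apart.

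The promoters of 5 genes, matched by symbol in RefSeq (GRCm38.p6), are printed. The set of promoters used held no entry for Ccl4 and Ccl5. Each run is the 250 bases upstream of the annotated start, read 5′ to 3′ on the gene's own strand, which is the minus strand for all of them. They lie at chr11:83649379-83649628 (Ccl3), chr11:83578637-83578886 (Ccl9), chr11:82179813-82180062 (Ccl1), chr1:164935523-164935772 (Xcl1) and chr5:92348890-92349139 (Cxcl10). Capitals mark letters that match, on either strand, the NF-kB pattern GGNNNTTCC, the AP-1 pattern TGANTCA or the interferon-stimulated element pattern GAAANNGAA.
Ccl3: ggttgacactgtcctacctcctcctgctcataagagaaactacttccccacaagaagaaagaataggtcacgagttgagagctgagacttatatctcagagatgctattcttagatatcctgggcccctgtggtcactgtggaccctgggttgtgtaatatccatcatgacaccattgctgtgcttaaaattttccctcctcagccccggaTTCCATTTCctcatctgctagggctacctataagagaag
Ccl9: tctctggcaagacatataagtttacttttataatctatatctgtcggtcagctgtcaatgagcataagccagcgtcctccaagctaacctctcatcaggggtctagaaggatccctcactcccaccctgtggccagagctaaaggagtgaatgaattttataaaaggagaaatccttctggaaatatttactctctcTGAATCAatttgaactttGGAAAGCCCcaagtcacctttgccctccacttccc
Ccl1: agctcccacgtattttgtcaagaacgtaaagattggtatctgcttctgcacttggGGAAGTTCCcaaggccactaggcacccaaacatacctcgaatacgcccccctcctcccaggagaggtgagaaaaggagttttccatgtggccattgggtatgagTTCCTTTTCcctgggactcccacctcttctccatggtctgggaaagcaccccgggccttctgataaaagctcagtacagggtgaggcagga
Xcl1: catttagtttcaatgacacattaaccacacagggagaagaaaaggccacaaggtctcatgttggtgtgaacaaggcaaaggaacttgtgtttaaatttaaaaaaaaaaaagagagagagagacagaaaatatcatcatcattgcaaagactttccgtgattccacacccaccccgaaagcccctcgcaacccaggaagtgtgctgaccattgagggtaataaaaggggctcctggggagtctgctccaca
Cxcl10: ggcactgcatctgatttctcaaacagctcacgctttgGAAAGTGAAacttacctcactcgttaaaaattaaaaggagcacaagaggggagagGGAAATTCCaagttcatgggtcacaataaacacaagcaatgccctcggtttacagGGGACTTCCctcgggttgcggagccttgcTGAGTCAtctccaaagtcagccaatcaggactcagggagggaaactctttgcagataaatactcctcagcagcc

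The Cxcl10 run held 2 NF-kB matches, 1 AP-1 match and 1 interferon-element match. The Ccl3 run held 1 interferon-element match and neither of the other patterns marked, the Ccl9 run 1 NF-kB and 1 AP-1 match, and the Ccl1 run 1 NF-kB and 1 interferon-element match. No marked pattern was in these letters of Xcl1. The short NFAT core GGAAA, which is not capitalised on its own and can overlap the longer patterns, occurred 3 times each in Cxcl10 and Ccl1, 2 times each in Ccl3 and Ccl9 and 1 time in Xcl1. In all 32851 upstream runs of this length in the RefSeq table, 15.7% held the NF-kB pattern, 6.75% the AP-1 pattern, 7.13% the interferon-element pattern and 55.6% the NFAT core. A match is a description of letters, not of a bound site. Ccl4 and Ccl5 are named only.

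In the genome, 5 of the 7 genes lay on mouse chromosome 11 (RefSeq, GRCm38.p6). Ccl5 (83525778 to 83530518), Ccl9 (83572917 to 83578636), Ccl3 (83647843 to 83649378) and Ccl4 (ending at 83664683) fell within 138.9 kb, and Ccl1 (82176666 to 82179812) lay 1.346 Mb away from Ccl5. Xcl1 was on chromosome 1 (164931644 to 164935522) and Cxcl10 on chromosome 5 (92346638 to 92348889). The RefSeq spans of Ccl3 and Ccl4 share 755 bases on opposite strands, whereas their GENCODE spans share 0. The library kit is not described as keeping strand, so reads falling in such an overlap could not be told apart.

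The sorted cell type was checked against its markers. The 7 CD8 T-cell genes summed to between 3535 and 6263 FPKM in the 20 libraries, while the 5 neutrophil genes summed to at most 13.6 FPKM and the 6 fibroblast genes to at most 0.811 FPKM in any library. The 5 NK cell genes, of which CD8+ T cells also express Eomes, summed to at most 21.4 FPKM. The highest sums were 14.7 for the 5 CD4 and regulatory T-cell genes, 12.9 for 6 tumour epithelium genes and 7.29 for 5 B-cell genes. The macrophage genes Adgre1 and Fcgr1 averaged under 0.08 FPKM in every group (highest group means 0.0765 and 0.077). Others of that list were higher: group means ran from 18.9 to 24.3 FPKM for Cd68 and from 0.281 to 7.34 for Cd14. Lyz2, the lysozyme of myeloid cells, averaged 18.8 FPKM in control libraries, 13.3 with pembrolizumab, 17.2 with ABL503 and 3.40 with both. Without Ly6c2, which CD8+ T cells also express, the other 12 macrophage and monocyte markers summed to 14.9 to 140 FPKM in control, 26.4 to 82.4 with pembrolizumab, 26.0 to 80.8 with ABL503 and 20.2 to 38.9 with both antibodies. Of the 9 dendritic cell markers, Flt3, Clec9a and Cd209a averaged under 1 FPKM in every group. The other 6 were above that: the highest group mean was 165 FPKM for Ccr7, 7.85 for Siglech, 7.41 for Batf3, 6.84 for Zbtb46, 4.36 for Xcr1 and 3.23 for Itgax.

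Ccl5 was the most abundant chemokine message in these cells, and the 7 genes made up nearly all of the chemokine RNA measured. Over the 20 libraries Ccl5 averaged 4619 FPKM and ranked 10 among all genes tested. Ccl4 followed at 809 FPKM, Ccl3 at 500.0, Xcl1 at 242, Cxcl10 at 84.5, Ccl1 at 57.9 and Ccl9 at 5.77. Together the 7 genes held 98.2% to 99.9% of the summed FPKM of all 38 chemokine genes looked at, and Ccl5 alone held 76.7% of it in control, 72.9% with pembrolizumab, 69.8% with ABL503 and 71.6% with both antibodies. The summed chemokine level was 5818 ± 851 FPKM in control, 7422 ± 891 with pembrolizumab, 6296 ± 1033 with ABL503 and 5853 ± 434 with both antibodies (SD, n = 5 each). The order of Ccl5, Ccl4 and Ccl3 by mean was the same in the 4 groups. Xcl1 and Ccl3 in control, at 259 ± 56 and 279 ± 167 FPKM, and Ccl3 and Ccl4 in the combination, at 601 ± 177 and 722 ± 164, lay within their spread of each other.

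**Figure D1:**
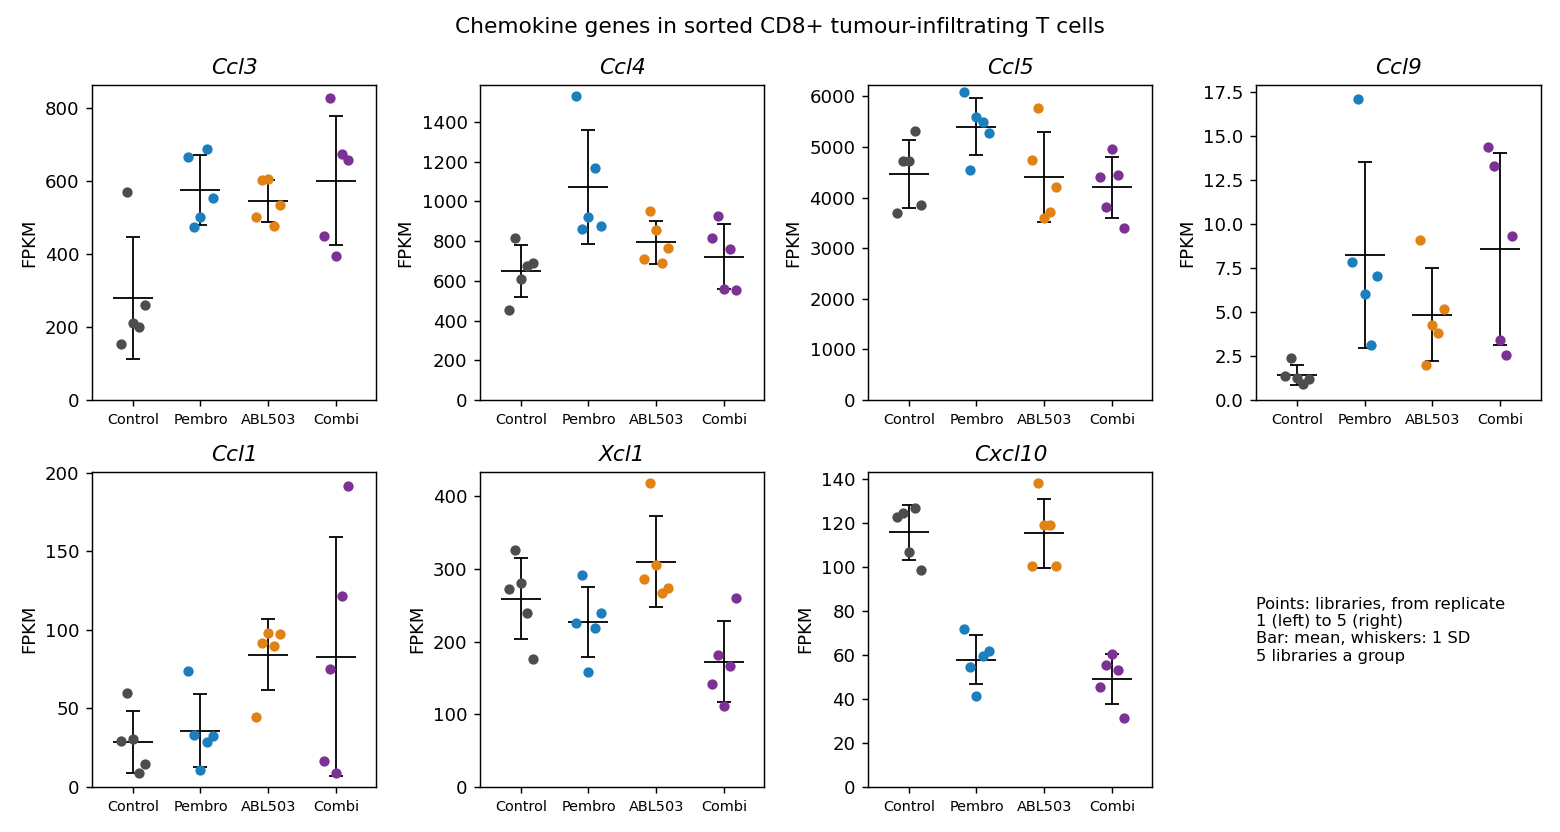
FPKM of the 7 chemokine genes in each of the 20 libraries (points, 5 a group; Pembro is pembrolizumab and Combi the combination), with the group mean (bar) and 1 SD (whiskers) on a linear axis from 0. Cxcl10 is the gene in which pembrolizumab and combination libraries (at most 71.8) lie below all control and ABL503 libraries (at least 98.5), and Ccl3 is lowest in 4 of the 5 control libraries.

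Under pembrolizumab alone, 4 of the 7 chemokines passed the test: Ccl3, Ccl4 and Ccl9 rose and Cxcl10 fell. Under ABL503 alone only Ccl3 passed, as a rise. Under the combination Ccl3 and Ccl9 rose and Cxcl10 fell. Beside these 4, 1 and 3 calls of 7, the share of all tested genes called was 5.55%, 0.619% and 12.6%. The 3 comparisons share the control libraries, so their values are given side by side and no agreement between them is counted as support. Across all tested genes the median difference in the 3 comparisons lay between -0.036 and -0.0080, so the differences are read from near 0.

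Ccl3, also called MIP-1 alpha, is secreted by activated T cells and draws in monocytes and T cells. Its control libraries measured 154, 570.5, 210, 200 and 260 FPKM. The pembrolizumab libraries measured 666, 474, 501, 687 and 553, and the ABL503 libraries 502, 603, 604, 477 and 535. In the combination the values were 449, 827, 395, 674 and 657. Control replicate 2 stood among the treated libraries, and each of the other 4 control libraries was below every treated one, so the groups overlapped only through that library. Mean FPKM was 2.07 times control with pembrolizumab, 1.95 times with ABL503 and 2.15 times with both antibodies.

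The log2 difference of Ccl3 from control was 1.19 (SE 0.25, limma adjusted p = 0.0093) with pembrolizumab, 1.12 (SE 0.25, limma adjusted p = 0.045) with ABL503 and 1.21 (SE 0.25, limma adjusted p = 0.0042) with the combination. The ABL503 call was near the threshold. It ended when any 1 of 16 of the 20 libraries was left out, with adjusted p up to 0.14 (without control replicate 1), and it held without control replicate 2, pembrolizumab replicate 4 or combination replicates 2 or 3. With the macrophage and monocyte markers other than Ly6c2 as a covariate the differences were 1.18, 1.06 and 1.04 (limma adjusted p = 0.0095, 0.064 and 0.022). Without control replicate 2 they were 1.49, 1.42 and 1.51, with limma adjusted p of 0.00021, 0.0013 and 0.00014. Between the treated groups Ccl3 differed by 0.02 (combination against pembrolizumab, 95% interval -0.51 to 0.55), 0.10 (combination against ABL503, -0.43 to 0.62) and 0.07 (pembrolizumab against ABL503, -0.46 to 0.60), and the intervals allow differences up to these bounds.

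Ccl4, or MIP-1 beta, is a close relative of Ccl3. Its control libraries measured 456, 816, 611, 674 and 691 FPKM, and its pembrolizumab libraries 1532, 858, 923, 1169 and 873. All 5 pembrolizumab libraries were above all 5 control libraries. The ABL503 libraries measured 712, 952, 856, 690 and 764, and the combination libraries 814, 925, 558, 762 and 551, both ranges overlapping control. Ccl4 rose by 0.71 with pembrolizumab (SE 0.18, limma adjusted p = 0.023), from 650 ± 132 to 1071 ± 286 FPKM. That call was lost without control replicate 1 (adjusted p = 0.069) or without pembrolizumab replicate 1 (adjusted p = 0.068), the library with the highest value. It was also lost with no filter on low values (0.079), with only the groups compared in the fit (0.053) and without control replicate 1 and ABL503 replicate 3 together (0.072). The differences from control were 0.31 (SE 0.18, limma adjusted p = 0.55) with ABL503 and 0.15 (SE 0.18, limma adjusted p = 0.62) with the combination.

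Within a library, Ccl3 was the lower of the pair in 19 of the 20 libraries, by an amount that varied among the libraries. The Ccl3 level divided by the Ccl4 level was 0.339, 0.699, 0.344, 0.296 and 0.376 in the control libraries and 0.435, 0.553, 0.543, 0.587 and 0.633 with pembrolizumab. With ABL503 the ratio was 0.706, 0.633, 0.706, 0.692 and 0.700, and with the combination it was 0.552, 0.895, 0.708, 0.884 and 1.19. Control replicate 2, the one with high Ccl3, had a ratio in the range of the ABL503 libraries. The mean ratio was 0.411 ± 0.16 in control, 0.550 ± 0.073 with pembrolizumab, 0.687 ± 0.031 with ABL503 and 0.846 ± 0.24 with both antibodies (SD, n = 5 each). The ratio was looked at after the values of both genes were seen, and is given as a description. Permutation tests of it were run in 6 comparisons. Their p-values are not given, because the measure was chosen on these same values.

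**Figure D2:**
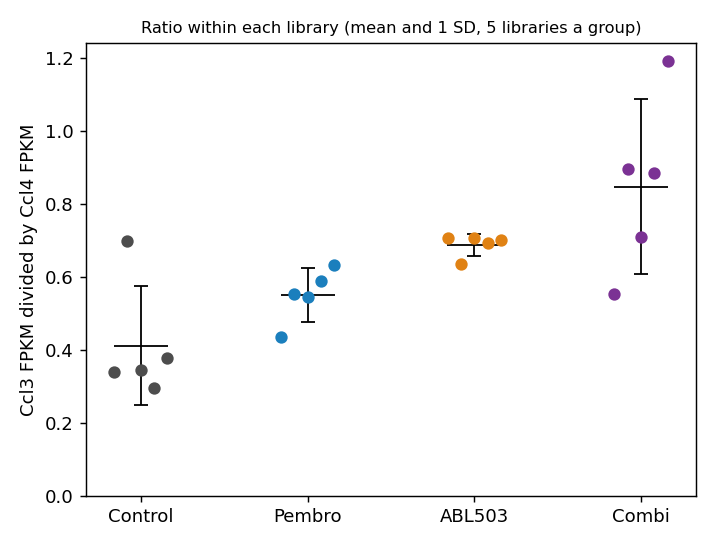
Ccl3 FPKM divided by Ccl4 FPKM in each of the 20 libraries (points), with the group mean (bar) and 1 SD (whiskers), on an axis from 0. The 5 ABL503 libraries lie between 0.633 and 0.706, and 4 of the 5 control libraries lie below 0.4, with control replicate 2 at 0.699.

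Ccl5, or RANTES, is kept at high levels by antigen-experienced CD8+ T cells and attracts T cells and monocytes. Its libraries ranged from 3700 to 5309 FPKM in control, 4545 to 6092 with pembrolizumab, 3606 to 5770 with ABL503 and 3407 to 4953 with both antibodies, and all 4 ranges overlapped. No difference of Ccl5 passed the test. The difference from control was 0.28 with pembrolizumab (95% interval 0.0034 to 0.56, limma adjusted p = 0.24), -0.02 with ABL503 (-0.30 to 0.25, adjusted p = 0.97) and -0.08 with the combination (-0.36 to 0.19, adjusted p = 0.71).

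Ccl9, or MIP-1 gamma, is a CCR1 ligand of rodents and was the least abundant of the 7. Control libraries measured 1.37, 2.38, 1.26, 0.930 and 1.21 FPKM. Pembrolizumab libraries measured 7.85, 17.1, 6.00, 3.10 and 7.06, and combination libraries 14.4, 13.3, 3.44, 2.55 and 9.32. Each library of these treated groups was above the highest control library. Mean FPKM was 5.75 times control with pembrolizumab and 6.01 times with the combination. On the log2 scale Ccl9 rose by 1.78 (SE 0.41, limma adjusted p = 0.014) and by 1.77 (SE 0.41, limma adjusted p = 0.0081). With ABL503 the libraries measured 9.10, 1.97, 4.26, 3.80 and 5.15, of which 4 were above every control library, and the difference of 1.18 (SE 0.41, limma adjusted p = 0.25) did not pass. The pembrolizumab call ended when no filter on low values was used (adjusted p = 0.055).

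Ccl1, the CCR8 ligand that activated T cells secrete, had the largest spread relative to its mean of the 7 genes in control, pembrolizumab and the combination. Control libraries measured 29.3, 60.0, 30.4, 9.10 and 14.5 FPKM and pembrolizumab libraries 73.9, 32.7, 10.6, 28.5 and 32.6. ABL503 libraries measured 44.5, 91.6, 98.3, 89.6 and 97.2, so that 4 of them were above every control and pembrolizumab library. Combination libraries ran from 9.02 to 191 (16.7, 75.3, 9.02, 122 and 191), which is both below and above the range of all the other groups. Group means were 28.7 ± 19.8, 35.7 ± 23.2, 84.2 ± 22.5 and 82.8 ± 76.1 FPKM in control, pembrolizumab, ABL503 and the combination (SD, n = 5 each).

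No difference of Ccl1 passed the test across all genes. For ABL503 against control it was 1.74 (SE 0.66, limma adjusted p = 0.31), and the exact permutation test of that single gene over the 10 libraries gave an unadjusted p of 0.016, two-sided, where the smallest possible is 0.0079. This is 1 of 42 such tests, 7 genes in 6 comparisons. For the combination against control the difference was 1.03 (SE 0.66, limma adjusted p = 0.32), with an interval from -0.35 to 2.40.

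Xcl1, or lymphotactin, is made by activated CD8+ T cells and NK cells and binds XCR1 on cross-presenting dendritic cells. Control libraries measured 273, 326, 281, 239 and 176 FPKM, and pembrolizumab libraries 226, 292, 158, 218 and 239. ABL503 libraries measured 286, 419, 306, 267 and 274, and combination libraries 142, 182, 112, 166 and 261. Every combination library was below every ABL503 library. Xcl1 was lower in the combination than in ABL503, with a log2 difference of -0.88 (SE 0.20, limma adjusted p = 0.016), with mean FPKM at 0.556 of the ABL503 level. That call did not hold without ABL503 replicate 2, the library at 419 FPKM (-0.77, adjusted p = 0.053). It was also lost with no filter on low values (limma adjusted p = 0.058). The 9 dendritic cell markers, of which Ccr7 is also a T-cell gene and differed by -1.15 in the combination, summed to 146 to 220 FPKM in ABL503 and 63.9 to 125 in the combination, and with their level as a covariate the Xcl1 difference was -0.65 (limma adjusted p = 0.27). That covariate took the calls among all tested genes in this comparison from 534 to 16. The loss of the Xcl1 call is therefore not particular to this gene.

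Against control, Xcl1 differed by -0.19 with pembrolizumab (limma adjusted p = 0.66) and by 0.27 with ABL503 (limma adjusted p = 0.66). In the combination the difference of -0.61 (SE 0.20, limma adjusted p = 0.0505) lay at the threshold. It passed in 5 of the 20 fits that left out 1 library, those without control replicate 5 (adjusted p = 0.019), combination replicate 5 (0.017), ABL503 replicate 2 (0.045), pembrolizumab replicate 2 (0.046) or pembrolizumab replicate 3 (0.042). It also passed with quantile normalization (adjusted p = 0.031), with libraries rescaled to 1 sum (0.033), with the macrophage and monocyte covariate (0.045) and with the replicate block (0.039). It did not pass with that covariate taken without Ly6c2. Over the 13 settings other than leaving out 1 library, the difference ran from -0.70 to -0.34. The limma adjusted p ran from 0.031 to 0.60 over these settings.

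Cxcl10 gave the clearest separation of the groups. Control libraries measured 122, 124, 107, 127 and 98.5 FPKM and ABL503 libraries 100.1, 138, 119, 119 and 100.3. Pembrolizumab libraries measured 71.8, 54.5, 41.4, 59.5 and 61.6, and combination libraries 45.5, 55.5, 60.4, 53.2 and 31.1. The 10 libraries that had received pembrolizumab, alone or with ABL503, were all below the 10 that had not. Cxcl10 fell by 1.01 with pembrolizumab (SE 0.16, limma adjusted p = 0.0010) and by 1.25 with the combination (SE 0.16, limma adjusted p = 4.6e-05). With ABL503 alone the difference was -0.01, with a 95% interval of -0.34 to 0.32 (limma adjusted p = 0.99). These calls, and that of the combination against ABL503, held in every fit that left out 1 library and in all other settings run.

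Cxcl10 and Ccl3 did not follow the same order of groups: all 5 ABL503 libraries had Ccl3 above 4 of the 5 control libraries, while their Cxcl10 overlapped control. The other chemokines that bind CXCR3 were near the floor. Cxcl9 averaged at most 0.300 FPKM and Cxcl11 at most 0.148 in any group.

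The group means of MHC class II genes, which antigen-presenting cells express, were lower where Cxcl10 was lower. The 4 MHC class II genes Cd74, H2-Aa, H2-Ab1 and H2-Eb1, chosen with their values known, summed to 132 to 444 FPKM in control, 36.1 to 150 with pembrolizumab, 100.1 to 274 with ABL503 and 28.0 to 55.8 with both antibodies. Over the 20 libraries the correlation of their mean log2 level with that of Cxcl10 was 0.64, and after subtracting each group's mean it was -0.17; the libraries share their groups, and both are descriptions. With the MHC class II level in the model as a covariate, the difference of Cxcl10 was -1.07 with pembrolizumab (limma adjusted p = 0.0057) and -1.37 with the combination (limma adjusted p = 0.010), each as large as without it. For the other genes the same covariate ended calls while the differences from control moved little. With pembrolizumab Ccl4 was at 0.72 and Ccl9 at 1.68 (limma adjusted p = 0.075 and 0.068), with ABL503 Ccl3 was at 1.11 (0.061), and with the combination Ccl3 was at 1.13 and Ccl9 at 1.58 (0.14 and 0.20). Xcl1 in the combination against ABL503 went from -0.88 to -0.63 (adjusted p = 0.37). In the 3 comparisons with control this left 2, 0 and 1 of the 7 genes called, while the number called among all tested genes went from 655 to 292, from 73 to 62 and from 1484 to 153. The MHC class II level differs between the groups, so its part and that of treatment cannot be told apart for these genes.

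**Figure D3:**
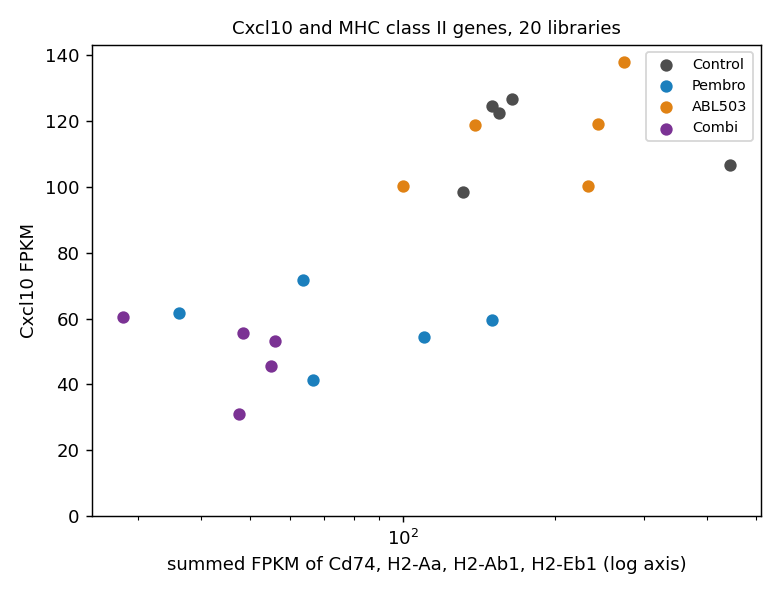
Cxcl10 FPKM (linear axis from 0) against the summed FPKM of Cd74, H2-Aa, H2-Ab1 and H2-Eb1 (log axis) in the 20 libraries, coloured by group. The pembrolizumab and combination libraries lie lower in Cxcl10 (at most 71.8). On the MHC class II axis the combination libraries (at most 55.8) lie below all control and ABL503 libraries, pembrolizumab replicates 2 and 4 (110 and 150) overlap them, and the correlation after removing group means is -0.17.

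The combination differed from ABL503 in 2 of the 7 genes, Xcl1 and Cxcl10, where 4.53% of all tested genes were called, and Cxcl10 was lower, with a difference of -1.24 (SE 0.16, limma adjusted p = 0.00032). Pembrolizumab differed from ABL503 in 1 of 7, where 1.28% of all genes were called: Cxcl10, at -0.995 (SE 0.16, limma adjusted p = 0.0050). The combination differed from pembrolizumab in 0 of 7 by limma, where 0.161% of all genes were called. At an unadjusted p under 0.05 that last comparison had 3 of the 7 genes, Ccl4 (-0.56), Ccl5 (-0.37) and Xcl1 (-0.42), all lower in the combination, beside 1552 of the 11794 tested genes. Their adjusted p were 0.19, 0.24 and 0.38. Ccl5 was lower in 4 of the 5 combination libraries than in every pembrolizumab library.

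The interaction asks whether the effect of 1 antibody depends on the other; it is the combination minus ABL503 less pembrolizumab minus control. None of the 7 genes passed it by limma (0 called), and 0.203% of all genes did. At an unadjusted p under 0.05 it held Ccl3, Ccl4 and Xcl1, beside 1210 of all tested genes. The estimates were -1.09 for Ccl3 (95% interval -1.84 to -0.35, limma adjusted p = 0.24), -0.87 for Ccl4 (-1.39 to -0.34, adjusted p = 0.17) and -0.69 for Xcl1 (-1.28 to -0.10, adjusted p = 0.39). Without control replicate 2 the estimate for Ccl3 was -1.39 (limma adjusted p = 0.029), which is past the threshold.

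**Figure D4:**
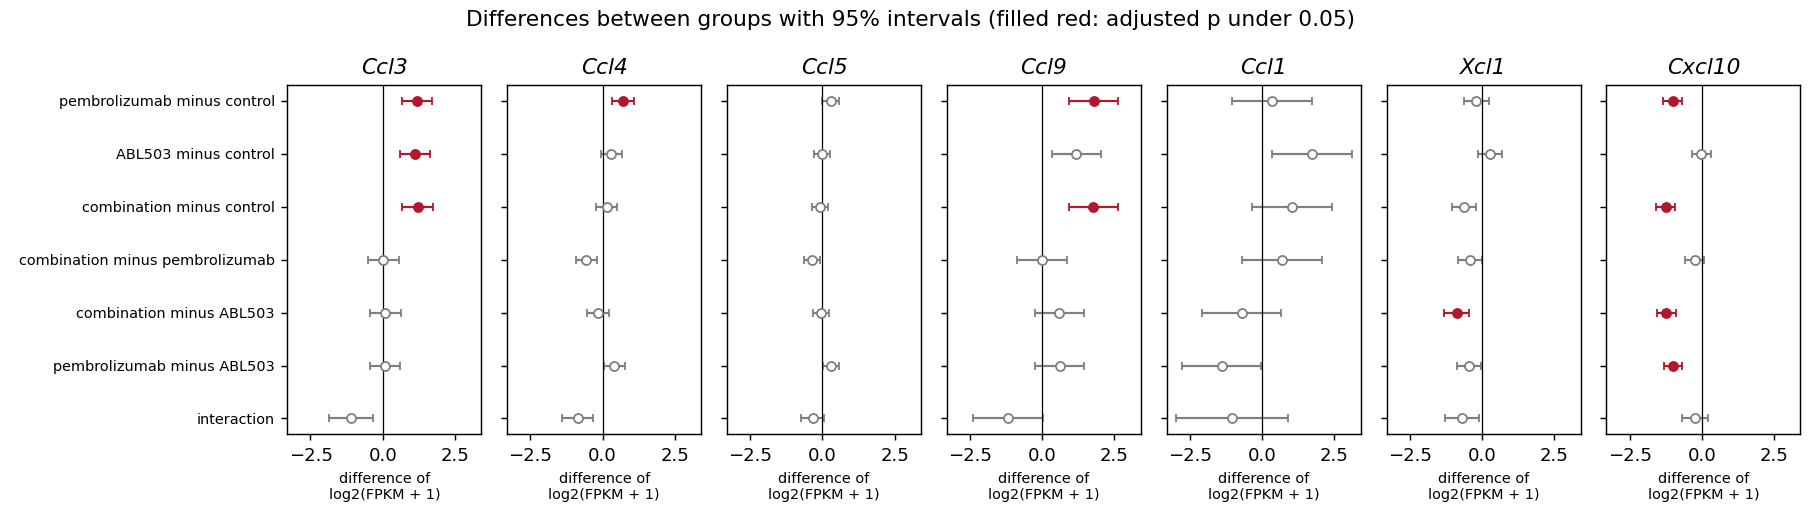
Difference of log2(FPKM + 1) for each of the 7 chemokine genes (columns) in each of the 7 comparisons (lines), with 95% intervals from the limma fit; filled red points have an adjusted p under 0.05. Ccl3 is filled red, right of 0, in the 3 comparisons with control. Cxcl10 is filled red, left of 0, in the 4 comparisons that set a group given pembrolizumab against a group not given it. The other points of these genes are open, those of Cxcl10 also left of 0.

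How the 7 genes varied among the libraries of a group was described by correlating their deviations from the group means (20 libraries, log2 scale). The highest of the 21 pairs were Ccl1 with Xcl1 at 0.74, Ccl3 with Ccl4 at 0.66 and Ccl3 with Ccl1 at 0.60. Cxcl10 stood at 0.44 with Ccl5, 0.42 with Ccl4, 0.09 with Ccl3, -0.02 with Xcl1, -0.03 with Ccl1 and -0.32 with Ccl9. All genes of a library share its depth and its cells.

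The genes most like each chemokine over the 20 libraries were taken as the 3 with the highest r among 4936 candidates. For Ccl3 they were Gzmc, a granzyme (r = 0.86, and 0.90 after removing group means), Ifng, the cytokine interferon gamma (0.83 and 0.68), and Plp2 (0.82 and 0.49). Gzmc averaged 48.1 FPKM in control, 97.0 with pembrolizumab, 387 with ABL503 and 436 with both antibodies, an order that Ccl3 does not share between pembrolizumab and ABL503. For Cxcl10 they were Gch1, the first enzyme of tetrahydrobiopterin synthesis (0.92 and 0.64), Yrdc (0.92 and 0.59) and Timp2, an inhibitor of metalloproteinases (0.92 and 0.52). Timp2 averaged 13.3 FPKM in control, 6.00 with pembrolizumab, 13.1 with ABL503 and 3.74 with both antibodies.

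For Ccl1 the 3 were Uap1 (0.83 and 0.80), Nrgn (0.81 and 0.79) and Il1r2, the decoy receptor of interleukin 1 (0.77 and 0.78). Il1r2 averaged 53.7 FPKM in control and 390 in ABL503. For Xcl1 they were Apex1, a DNA repair endonuclease (0.82 and 0.79), the death receptor Fas (0.82 and 0.58) and Tex30 (0.76 and 0.46). Ccl4 was most like Adam19 (0.82), Timm13 (0.77) and Pop5 (0.77), Ccl5 most like Auh (0.79), Cox16 (0.77) and Sult2b1 (0.75), and Ccl9 most like Ola1 (0.84), Fkbp1a (0.83) and Serpinb6b (0.83). None of the 7 chemokines was among the 3 nearest of another. Ccl9 was below the level asked of a candidate, so it could not be listed.

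Of the receptors, 5 of 9 were tested, and 1 passed in any comparison. Xcr1, the receptor of Xcl1 and a marker of cross-presenting dendritic cells, rose by 0.61 with pembrolizumab (SE 0.14, limma adjusted p = 0.017), from 2.52 ± 0.30 to 4.36 ± 0.55 FPKM. Of the other dendritic cell markers, Batf3, which activated T cells can also express, rose by 1.30 with pembrolizumab (limma adjusted p = 0.021), from 1.76 ± 1.1 to 5.91 ± 2.5 FPKM, and Clec9a was listed at 0 in all pembrolizumab libraries. Xcr1 averaged 3.89 FPKM with ABL503 and 3.69 with the combination, and Batf3 7.41 and 4.54. Siglech, Zbtb46, Flt3 and Ccr7 averaged 7.85, 3.31, 0.434 and 111 FPKM in control but 2.45, 2.14, 0.0691 and 85.7 with pembrolizumab. Itgax and Cd209a had higher means with pembrolizumab. Of the 6 dendritic cell markers tested, 2 rose and 0 fell with pembrolizumab, with a median difference of 0.0018. Cxcr3, the receptor of Cxcl10, averaged 132 ± 23.9 FPKM in control, 95.9 ± 18.8 with pembrolizumab, 111 ± 13.9 with ABL503 and 113 ± 36.4 with both antibodies, with no difference passing. Ccr8, the receptor of Ccl1, averaged 29.9 ± 10.3 FPKM in control and 39.1 ± 8.2 in ABL503 (difference 0.41, limma adjusted p = 0.61). The receptors Ccr1 and Ccr3 averaged under 1 FPKM in every group.

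Among 27 tested regulators of T-cell activation, 3 rose and 0 fell with pembrolizumab, 1 rose and 0 fell with ABL503, and 3 rose and 7 fell with the combination. Of all tested genes 5.55%, 0.619% and 12.6% were called in these comparisons. The median difference of the list was -0.15, -0.08 and -0.18, beside -0.03, -0.01 and -0.04 over all tested genes. Irf8, a transcription factor of interferon and antigen responses, rose in the 3 comparisons, by 1.53, 0.90 and 1.39 (limma adjusted p = 4.3e-05, 0.014 and 4.6e-05), from 15.05 ± 3.7 FPKM in control to 45.3 ± 10.1, 28.6 ± 3.3 and 41.3 ± 10.1. Klf6 and Zeb2, the latter a factor of effector differentiation, rose with pembrolizumab and with the combination (Zeb2 by 1.01 and 0.73). Klf2, a factor of quiescence and tissue exit, was 1 of the 7 that fell in the combination, by 1.17 (limma adjusted p = 0.0030). The others of those 7 are not named, since at most 4 genes of a list are.

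The interferon list, which holds Ifng itself beside response genes, had 19 tested genes. Of these, 1 rose and 2 fell with pembrolizumab, 0 passed with ABL503 (limma), and 1 rose and 3 fell with the combination. Of all tested genes 5.55%, 0.619% and 12.6% were called in these comparisons. The median difference of the list was -0.18, -0.23 and -0.15, beside -0.03, -0.01 and -0.04 over all tested genes. With pembrolizumab Ifng rose by 0.61 (limma adjusted p = 0.034), from 635 ± 151 to 963 ± 170 FPKM, and the interferon-induced Ifit3 and Irf1 fell by 0.89 and 0.52 (limma adjusted p = 0.026 and 0.047). With the combination Mx1 rose by 0.69 (adjusted p = 0.017), while Oasl2, Ifit1 and Ifit3 fell by 0.88, 0.61 and 0.71.

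The other 31 chemokine genes were low. Of these, 11 were tested, 21 averaged under 1 FPKM in every group, and 1, Ccl8, averaged at least 10 FPKM in any group. Cxcl16, a transmembrane chemokine, was the 1 gene called in any comparison, lower in the combination than in ABL503 with a difference of -1.02 (SE 0.27, limma adjusted p = 0.031), at 1.66 ± 1.1 against 4.09 ± 0.55 FPKM. Cxcl2, a ligand of neutrophils, averaged 3.82 FPKM in control, 2.16 with pembrolizumab, 6.92 with ABL503 and 0.866 with both antibodies, with 1 library at 25.8, and did not pass.

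**Figure D5:**
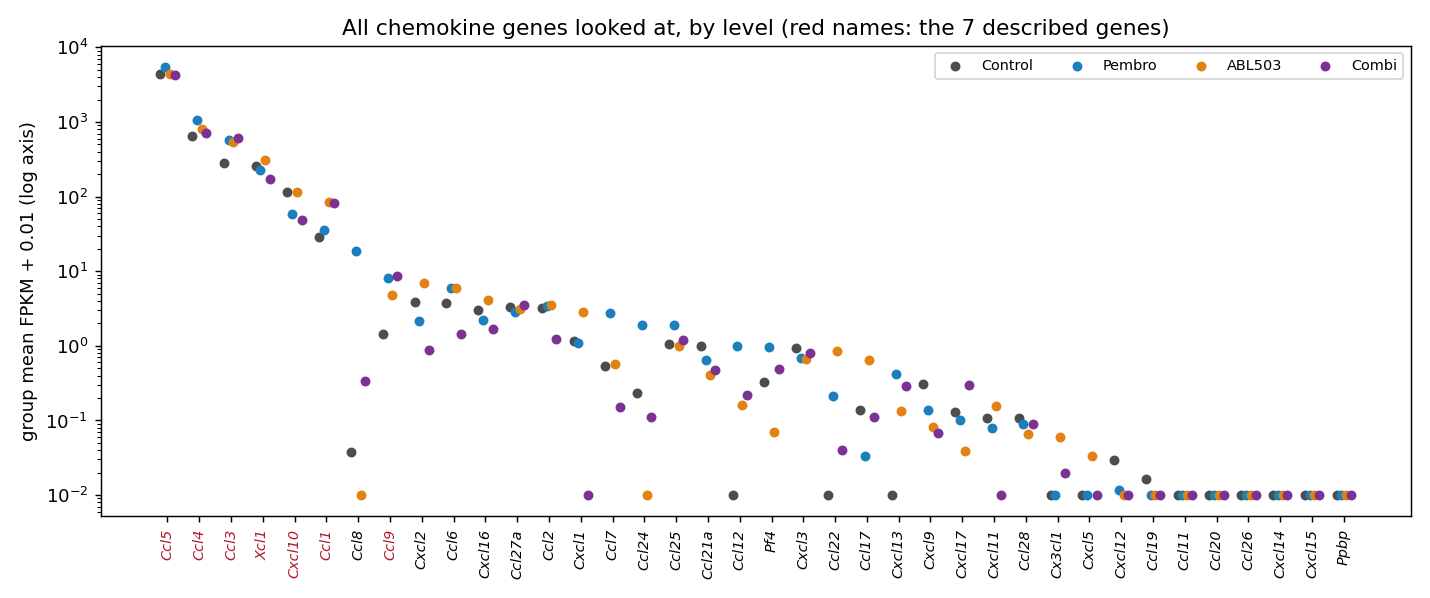
Group mean FPKM plus 0.01 (log axis) of the 38 chemokine genes looked at, ordered by their highest group mean, with 1 point a group (5 libraries each). The 6 highest are all among the 7 described genes (red names), and 6 genes at the right are listed at 0 in all 20 libraries.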

How the data were processed

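RNA of sorted CD8+ tumour-infiltrating T cells was sequenced in 20 libraries, 5 in each of 4 groups. Per the labels' protocols, libraries were made with the SMART-Seq v4 Ultra Low Input kit; per the submitters' processing notes, HISAT2, StringTie and GRCm38 (mm10) were used, with versions and annotation release not given in the sources used here. The values deposited by the authors, 1 per gene symbol and library, were taken as FPKM; that unit is inferred from the values. Depth could not be recovered, so no counting interval is given.

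The 11794 of 45777 genes that reached 1 FPKM in 5 or more libraries were tested as log2(FPKM + 1) with limma 3.58.1 in R 4.3.3: 1 mean per group, all 20 libraries, variances moderated with an intensity trend (16 residual degrees of freedom), 7 comparisons, two-sided, Benjamini-Hochberg adjustment over all tested genes within a comparison. Exact permutation tests for single genes and all summaries used Python 3.11.15, pandas 2.3.3 and SciPy 1.17.1; matplotlib 3.10.9 drew the plots. The fit was tested on simulated data of 11794 genes, with normal noise independent between genes. Of genes changed 2-fold, 85.1% were recovered for pembrolizumab against control, and of those changed 1.5-fold 64.2%, with 9 wrong calls among the unchanged genes. For ABL503 against control these were 88.1%, 58.2% and 8 wrong calls. For the combination against control they were 91.0%, 46.3% and 7 wrong calls. Changed genes were drawn above a level that Ccl9 in control does not reach, so recovery at its level was not tested.

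The 7 chemokines, the gene lists and the naming rule were chosen with earlier results of these data known. All 7 are named, with the 3 most alike genes (highest Pearson r, mean log2 level of at least 3, leaving out predicted models, pseudogenes, small RNAs and receptor segments) and up to 4 genes of smallest p from each list. Cd74 and the other MHC class II genes, Ccr8, Cxcr3, Cxcl2, Cxcl9, Cxcl11 and the marker genes given by level were added after their values were seen.

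The fit was repeated with quantile normalization, with libraries rescaled to 1 sum, with a pseudocount of 0.1, without the filter, with array weights, with a replicate block, on the compared groups alone, at a threshold of 0.1, with libraries left out, and with a macrophage marker covariate. Covariates for dendritic cell markers, for macrophage markers without Ly6c2 and for MHC class II genes were added after seeing the data.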

Additional observations from a re-analysis of the deposited data

Results flagged for a closer look

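In 3 of the 28 combinations of gene and group, 1 library lay far from the other 4, its gap to the nearest being over 0.71 of the whole range; by chance about 1 in 20 would. Ccl3 in control replicate 2 was the highest of its group at 570.5 FPKM, where the other control libraries lay between 154 and 260. The values of Ccl3 with and without that library stand beside its results. Ccl1 in ABL503 replicate 1 was the lowest of its group at 44.5 FPKM, where the others lay between 89.6 and 98.3. Xcl1 in ABL503 replicate 2 was the highest of its group at 418.6 FPKM, where the others lay between 267 and 306, and the call of Xcl1 in the combination against ABL503 did not hold without it (adjusted p = 0.053).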

How the results depend on the processing

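Of the changes of single chemokines, 595 values under the alternatives other than leaving out 1 library kept direction and side of the threshold, 18 lost a call, 5 gained one and 12 changed sign; with 1 library left out these numbers were 935, 19, 6 and 20. Every value that changed sign was uncalled, and the cause was not tested. With no filter on low values, which adds genes to the adjustment, 2 of the 7 genes were called for pembrolizumab against control (4 otherwise), 0 for ABL503 against control (1 otherwise) and 1 for the combination against ABL503 (2 otherwise). Over all genes of that fit the calls were 321, 42 and 271, beside 655, 73 and 534 in the main fit. For ABL503 against control 0 were called with only the groups compared, without control replicate 1 and ABL503 replicate 3 together, and with each of the 4 covariates. Of all tested genes the covariates left 61 (macrophage and monocyte), 63 (without Ly6c2), 23 (dendritic cell) and 62 (MHC class II) called there. The dendritic cell covariate left 1 for the combination against ABL503, where it left 16 of all tested genes (534 otherwise). The MHC class II covariate left 2 for pembrolizumab against control, 1 for the combination against control (3 otherwise) and 1 for the combination against ABL503. Over all tested genes it left 292, 153 and 22 calls in these comparisons.

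With 1 library left out, the number called was 3 to 4 for pembrolizumab and for the combination against control, 0 to 1 for ABL503 against control and for the interaction, 1 to 2 for the combination against ABL503, 1 for pembrolizumab against ABL503 and 0 for the combination against pembrolizumab. Over all tested genes the counts in these fits were 383 to 710 (pembrolizumab), 40 to 85 (ABL503) and 957 to 1659 (combination, against control each). For the combination they were 263 to 747 against ABL503 and 6 to 49 against pembrolizumab. For pembrolizumab against ABL503 they were 54 to 218, and for the interaction 6 to 49.

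Sign changes outside the fits with 1 library left out were these. For Ccl3, pembrolizumab against ABL503 was -0.0138 with quantile normalization and -0.25 with the dendritic cell covariate; the combination against pembrolizumab was -0.14 with either macrophage covariate, -0.0169 with the dendritic cell covariate and -0.0146 with the MHC class II covariate; the combination against ABL503 was -0.27 with the dendritic cell covariate and -0.024 with the macrophage covariate without Ly6c2. For Cxcl10, ABL503 against control was 0.00839 with array weights and 0.0875 with the dendritic cell covariate. For Ccl9, the combination against pembrolizumab was 0.00719 with array weights and 0.0322 with the dendritic cell covariate. With 1 library left out, the values ran from -0.0767 to 0.0375 for Cxcl10 (ABL503 against control), -0.13 to 0.0423 and 0.0424 for Ccl5 (ABL503 against control and the combination against ABL503), -0.26 to 0.29 for Ccl9 and -0.11 to 0.16 for Ccl3 (combination against pembrolizumab), and -0.0328 to 0.23 for Ccl3 (combination against ABL503).

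Replicate numbers are shared by the 4 groups, but same-numbered libraries did not deviate together: over 30 pairs the correlation of deviations ran from -0.15 to 0.11, 2 were over 0.1, and 5 of 20 libraries matched best with their own number. With the replicate block 4, 1, 4, 0, 2, 1 and 0 of the 7 genes were called in the 7 comparisons (pembrolizumab, ABL503 and the combination against control, the combination against pembrolizumab and against ABL503, pembrolizumab against ABL503, and the interaction), with Xcl1 in the combination against control the gene gained. This block is 1 of 13 settings other than leaving out 1 library. Over these, calls among all genes against control ran from 292 to 1154 (pembrolizumab), 23 to 115 (ABL503) and 153 to 2295 (combination). Depth is unknown, so what limits Ccl9 at its low level could not be measured.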

Other observations

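Some chemokines of myeloid cells appeared in single libraries of the pembrolizumab group. Ccl8 measured 89.1 FPKM in pembrolizumab replicate 3, between 0 and 1.72 in the other 4 pembrolizumab libraries and at most 1.52 in any library of the other groups. The same library had the highest Ccl7 (11.6 FPKM) and Ccl12 (4.30 FPKM) of all 20 libraries, whereas Ccl24 was highest in pembrolizumab replicate 1, at 9.56 FPKM. These genes were chosen after their values were seen, and Ccl8 and Ccl7 passed no test, while Ccl12 and Ccl24 were below the filter and not tested. In that library the described genes stood inside the range of their group, except Xcl1 and Cxcl10, which were the lowest of it at 158 and 41.4 FPKM, and Ccl1, also the lowest at 10.6 FPKM.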
